A study of Homo sapiens with 30 samples.

Results

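PANC-1 tumoroids grown with droplets that carried PD-1, and no other protein, were compared with tumoroids grown with plain droplets. The comparison rested on 6 of the 30 libraries of the series, chosen by their sample titles: 3 from hybrids with PD-1 droplets and 3 from hybrids with unfunctionalized droplets. All genes entered the comparison. The droplets are droplet-supported lipid bilayers (DSLBs), oil droplets coated with a fluid lipid layer whose nickel-bearing head groups hold the His-tagged outer domains of immune receptors, so that a cell touching the droplet meets the receptor as it would on a lymphocyte. PANC-1 is an established line from a human pancreatic ductal adenocarcinoma. All 10 groups of the series were made from wild-type PANC-1 cells in medium with 1% serum, and 150 ng of total RNA went into each strand-marking library. The labels give 50000 to 100000 cells per tumoroid culture, and the study's sequencing methods give 100000. Of the 10 groups, 1 had no droplets (DSLB-free), 1 had plain DSLBs and 1 had DSLBs with PD-1. In 7 further groups the DSLBs held PD-1 and a second molecule, which was TIGIT, LAG3, ICOS, CTLA4, CD40L, CD27 or CD2. Each group had 3 libraries. The sources differ on the ratio of cells to DSLBs. The replicates were grown in parallel from 1 cell line, so p-values measure the spread between such cultures. No group carried another protein in place of PD-1, so an effect of PD-1 and an effect of any protein coupled to the lipid layer cannot be told apart in these libraries.

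PD-1 (PDCD1) is an inhibitory receptor of activated T cells. Its ligands PD-L1 (CD274) and PD-L2 (PDCD1LG2) sit on antigen-presenting cells and on many tumor cells, and binding dampens the T cell. PD-L1 also has a cytoplasmic tail, and signals running back into the tumor cell have been linked to survival, glucose use and interferon sensitivity. Pancreatic tumors are dense in matrix and poor in oxygen. In low oxygen the factor HIF-1 switches on glycolytic enzymes, glucose transporters and mitophagy receptors, while interferons act through a complex that holds STAT2 and IRF9 on antiviral genes and on the MHC class I machinery that shows peptides to T cells.

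The 6 libraries held between 25770736 and 54659032 expected counts, the fractional read assignments of RSEM. Epithelial markers set the profile: 11 pancreatic ductal and epithelial genes summed to 4892 to 5284 TPM, a unit of abundance corrected for transcript length and depth, in the plain libraries and to 6312 to 6744 TPM in the PD-1 libraries. They did not move together. Of the 9 tested, 4 were higher (KRT19, KRT18, KRT8 and CLDN4) and 2 lower (CDH1 and EPCAM), and 2 of the 11 stayed under 1 TPM in all 6 libraries. The T cell genes CD3D, CD3E, CD28 and TRBC1 had no count in any of the 6 libraries, and 15 T cell markers summed to at most 2.72 TPM. The 10 myeloid markers summed to 31.7 to 32.4 TPM with plain DSLBs and 35.5 to 45.8 TPM with PD-1. Nearly all of it came from the lysosomal protein CD68 (log2 fold change 0.49, past the test), with C1QA, C1QB, CD163 and FCGR3A at 0. Of the 3 myeloid markers tested, 2 were higher, CD68 and CD14, and 0 lower. In all 6 libraries 9 of the 10 stayed under 1 TPM. The 10 fibroblast markers summed to 313 to 354 TPM with plain DSLBs and 196 to 235 TPM with PD-1, nearly all of it from COL1A1, and 6 of them stayed under 1 TPM in all 6 libraries. The 8 endothelial markers summed to under 1 TPM in each of the 6 libraries. TPM values of the PD-1 libraries lay lower by a median of 0.13 on the log2 scale over 17990 genes, so directions below are taken from CPM, counts scaled to a common library total, with totals adjusted by TMM (trimmed mean of M values). PD-1 replicate 1 stood apart from the other 2 PD-1 libraries: the chi-square per gene against them was 21.9 and 17.7, against 4.38 between replicates 2 and 3 and 3.51 to 6.31 among the plain libraries. Counts without that library are given beside the lists below.

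RNA for the known ligands of PD-1 was nearly absent, and their protein was not measured in these libraries. CD274, which encodes PD-L1 (chr9:5450503-5470566 in hg38), had 3, 4 and 3 expected counts in the plain libraries and 3, 8 and 4 in the PD-1 libraries. The DSLB-free libraries had 5, 1 and 4, and no library of the series had more than 8. The values overlapped in all groups and were too low to test. PDCD1LG2 (PD-L2) had no count in any of the 6 libraries, and CD80, which binds PD-L1 on the same cell surface, had at most 1. RNA of PDCD1 itself, which the droplets supply only as protein, gave 11, 15 and 7 expected counts with plain DSLBs and 13, 27 and 11 with PD-1. RGMB, a bone morphogenetic protein co-receptor that binds PD-L2, was measured well. Its level was 34.5, 34.6 and 35.7 CPM with plain DSLBs and 31.5, 32.3 and 31.8 CPM with PD-1, a log2 fold change of -0.13 (SE 0.0607) that did not pass the test (edgeR adjusted p = 0.122). Of 16 genes for PD-1 ligands and for the trafficking, glycosylation, cleavage and breakdown of PD-L1, 13 were tested and 0 passed, against 22.0% of all genes. Their log2 fold changes ran from -0.21 for the glycosyltransferase B3GNT3 to 0.27 for PDCD1, with a median of 0.00. CMTM4 (-0.14), CMTM6 (0.06) and ADAM10 (-0.06), which stabilize or shed PD-L1, and the ubiquitin ligase STUB1 (0.13) lay within that range.

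Across the genome the PD-1 hybrids differed from the plain hybrids at 4054 of 18424 genes tested, 22.0% of them, by edgeR's quasi-likelihood test at an adjusted p of 0.05. Of these, 2084 (11.3% of genes tested) were higher with PD-1 and 1970 (10.7%) were lower. Most changes were small. The median log2 fold change was 0.39 among the higher and -0.43 among the lower genes, and 139 genes rose and 304 fell by 2-fold or more. By comparison, plain DSLBs against no DSLBs gave 2 genes past the same test (0.0109%), SCG2 and WLS, both higher with plain DSLBs, with 1123 genes at an unadjusted p under 0.05.

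**Figure D1:**
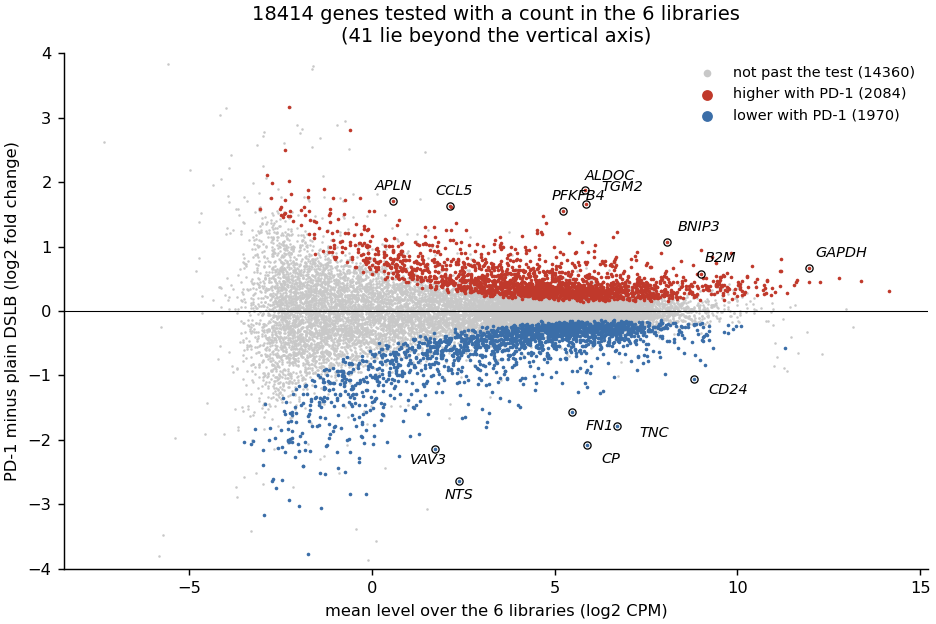
Each point is a gene, with its mean level over the 6 libraries (log2 CPM) on the horizontal axis and its PD-1 minus plain DSLB log2 fold change on the vertical axis. Red points (2084) were higher and blue points (1970) lower with PD-1 at an edgeR adjusted p of 0.05, grey points did not pass, and circled genes are named in the text.

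Among genes past the test with a mean of at least 50 counts and no overlap between the groups, the 10 with the largest rise were led by ALDOC, an aldolase of glycolysis, and held the regulators PFKFB4 and PPP1R3G of sugar metabolism, the secreted peptide apelin (APLN), the protein-crosslinking enzyme TGM2, the T cell attractant CCL5, the small GTPase RASD2, the plasmin inhibitor SERPINF2, the retinaldehyde reductase DHRS3 and the folate enzyme ALDH1L2. ALDOC (chr17:28573115-28576948) stood at 21.8, 26.5 and 25.1 CPM in the plain libraries and at 93.0, 95.2 and 79.7 CPM in the PD-1 libraries. Every PD-1 library lay above every plain library, with a log2 fold change of 1.87 (SE 0.116, adjusted p = 1.01e-11). TGM2 rose from 28.9, 24.7 and 30.7 CPM to 90.9, 94.0 and 82.1 CPM, and DHRS3 from 16.1, 14.5 and 15.4 CPM to 44.7, 39.4 and 34.3 CPM. Neither pair of groups overlapped. The log2 fold changes were 1.66 (adjusted p = 5.81e-10) and 1.37 (adjusted p = 1.08e-10). The remaining 7 lay between 1.36 for ALDH1L2 and 1.71 for APLN. RRAGD, a GTPase that tethers mTORC1 to the lysosome and was picked after its values were seen, rose from 15.2, 14.6 and 14.4 CPM to 34.3, 35.0 and 34.6 CPM (log2 fold change 1.23, SE 0.0648, adjusted p = 1.67e-13).

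By the same limits on counts and overlap, the 10 genes with the largest fall were the neuropeptide NTS, the immunoglobulin-domain proteins IGSF10 and IGSF9, the exchange factor VAV3, the copper-carrying ferroxidase CP, the kinase-like DIPK1C, the transcription factor MECOM, and the matrix proteins TNC, COL14A1 and VIT. NTS fell from 9.48, 7.24 and 10.2 CPM to 1.32, 1.19 and 1.84 CPM, a log2 fold change of -2.64 (SE 0.190, adjusted p = 1.08e-10). CP (ceruloplasmin) stood at 95.9, 94.1 and 99.3 CPM with plain DSLBs and at 20.7, 23.4 and 24.1 CPM with PD-1. The PD-1 libraries lay close together and far below the plain libraries, with a log2 fold change of -2.08 (SE 0.104, adjusted p = 8.66e-14). MECOM went from 13.4, 12.7 and 14.8 CPM to 3.97, 3.91 and 3.76 CPM (log2 fold change -1.81, adjusted p = 1.70e-10). The remaining 7 lay between -2.25 for IGSF10 and -1.71 for VIT.

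**Figure D2:**
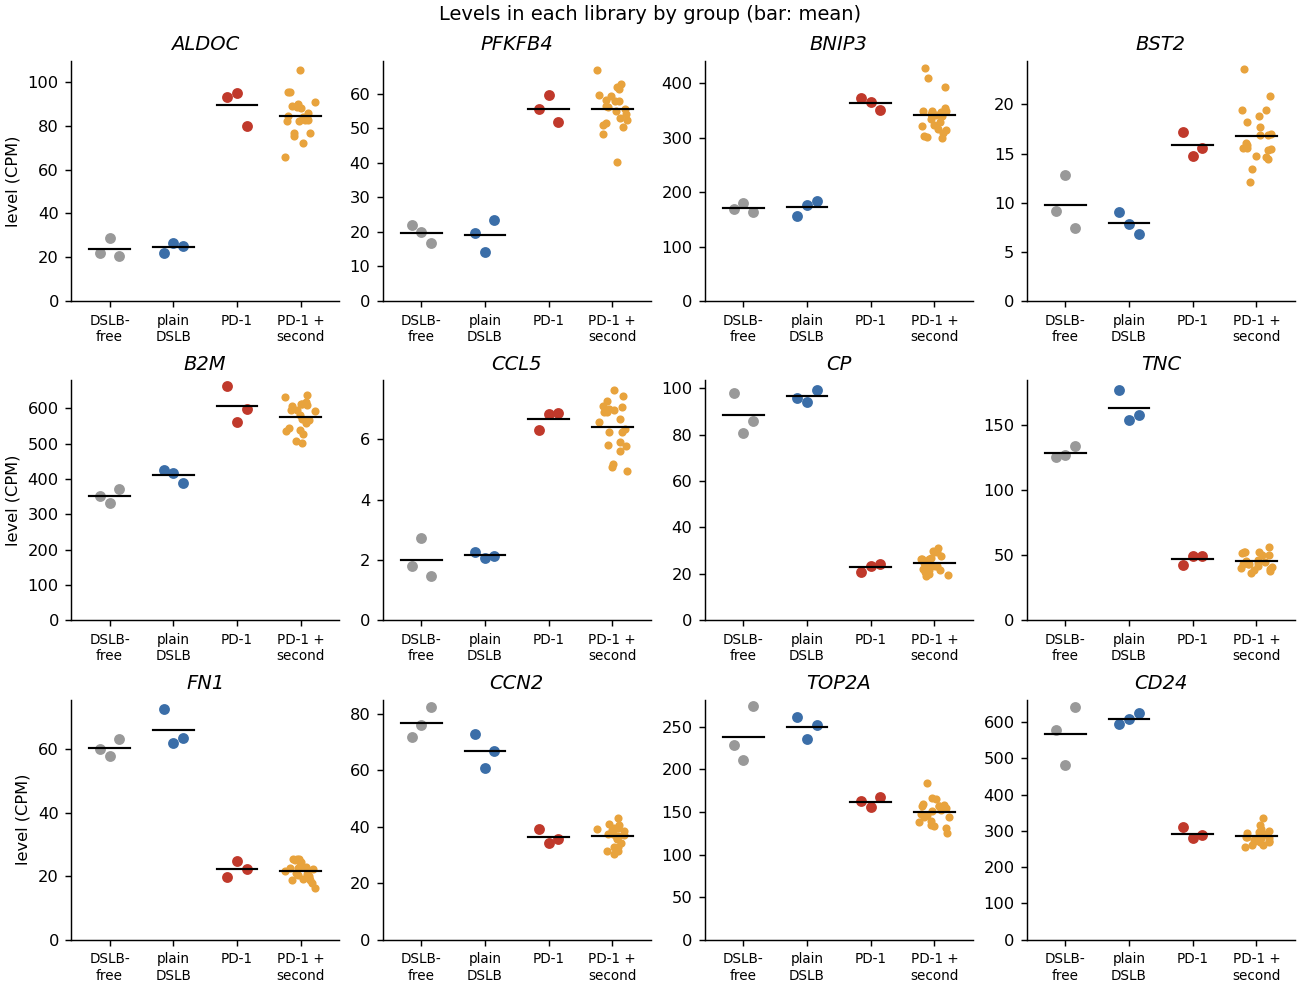
Each panel gives the CPM of 1 gene in every library of the series (points) with the group mean (bar), from an axis that starts at 0. For ALDOC, PFKFB4, BNIP3, BST2, B2M and CCL5 the 3 PD-1 libraries lie above all plain libraries, and for CP, TNC, FN1, CCN2, TOP2A and CD24 below them.

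Genes were then taken by pathway. In each list the number of members past the test is to be read against the share over all genes tested, 11.3% higher and 10.7% lower. Over protein-coding genes tested the shares were 13.2% and 12.4%. Numbers in brackets after a gene are log2 fold changes, PD-1 minus plain DSLB, and members given that way passed the test unless a p is given. A rule named the members with the highest mean level among those past the test, and the members with larger changes were picked after their values were seen. Of the 6 fits that each left out 1 of the libraries compared, the number that lost a gene's call is given where it is 3 or more.

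Of all lists described here, glycolysis had the largest share of higher members. Of 25 members tested, 21 were higher and 1 was lower with PD-1, with a median log2 fold change of 0.59 against 0.00 over all genes. The rise covered nearly every step from glucose entry to lactate export: the transporter SLC2A1 (0.78), the hexokinase HK1 (0.53), GPI (0.84), the phosphofructokinases PFKP (0.62), PFKL (0.40) and PFKM (0.21), ALDOA (0.81), TPI1 (0.55), GAPDH (0.67), PGK1 (0.69), PGAM1 (0.59), ENO1 (0.28), PKM (0.62), LDHA (0.46) and the lactate exporter SLC16A3 (0.47). GAPDH, one of the most abundant transcripts of these cells, rose from 2848, 3191 and 3116 CPM to 4765, 5174 and 4608 CPM, with no overlap (SE 0.0828, adjusted p = 1.06e-06). PFKFB4, which makes the allosteric activator of phosphofructokinase, rose from 19.6, 14.2 and 23.3 CPM to 55.6, 59.6 and 51.7 CPM (log2 fold change 1.56, SE 0.118, adjusted p = 3.01e-10). PDK1, the kinase that keeps pyruvate out of the mitochondrion, rose from 23.1, 26.8 and 27.0 CPM to 58.6, 63.1 and 55.0 CPM (1.203, SE 0.0920, adjusted p = 2.92e-10). The hexokinase HK2 rose from 15.4, 12.3 and 18.1 CPM to 32.6, 39.5 and 32.3 CPM, again with no overlap. The exception was SLC2A3, the neuronal-type glucose transporter, at 1.56, 1.63 and 1.53 CPM with plain DSLBs and 0.775, 0.594 and 0.846 CPM in the PD-1 libraries (-1.10, adjusted p = 0.00376). Leaving out PD-1 replicate 1 put the list at 20 higher and 2 lower. GAPDH and ALDOA, like the ribosomal protein genes below, have processed pseudogenes that can share reads with them.

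The hypoxia list, which excluded those enzymes, held 16 higher and 2 lower genes of 25 tested, with a median of 0.50. BNIP3, a receptor that marks mitochondria for autophagy, rose from 156, 176 and 184 CPM to 373, 366 and 351 CPM (log2 fold change 1.08, SE 0.0943, adjusted p = 3.93e-09), and its relative BNIP3L changed by 0.69. Other members past the test were NDRG1 (0.92), STC2 (0.86), FAM162A (0.83), the collagen prolyl hydroxylases P4HA2 (0.77) and P4HA1 (0.49), the oxidase ERO1A (0.69), the oxygen sensor EGLN1 (0.64) and the histone demethylase KDM3A (0.58). Carbonic anhydrase CA9 was low, 1.46, 1.32 and 1.45 CPM against 2.72, 2.30 and 1.90 CPM, and its log2 fold change of 0.72 passed (adjusted p = 0.0185) but not without PD-1 replicate 1 (0.101) or without plain replicate 2 (0.0705). VEGFA overlapped between the groups, at 132, 127 and 156 CPM and at 151, 206 and 207 CPM, and its log2 fold change of 0.44 (adjusted p = 0.0110) lost the call without PD-1 replicate 2 or 3 or without plain replicate 1 or 2 (adjusted p = 0.0506 to 0.0629). The 2 lower genes were HIF1A, which encodes the oxygen-controlled subunit of HIF-1, and EGLN3, one of the hydroxylases that mark it for breakdown. HIF1A RNA fell from 144, 139 and 136 CPM to 99.7, 92.7 and 95.9 CPM (-0.54, SE 0.0894, adjusted p = 6.54e-05). EGLN3 (-0.44, adjusted p = 0.0213) lost its call when any of 4 libraries was left out (adjusted p = 0.0543 to 0.0959). Leaving out PD-1 replicate 1 put it at 15 higher and 1 lower.

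The letters ACGTG are the core of the element that HIF-1 binds. They were searched on both strands (ACGTG or CACGT, which share 4 letters where they meet as CACGTG) in the 250 bases before each transcript start of RefSeq (GRCh38.p14). The core occurred in 18.5% of 35116 promoters, in 17 of 48 promoters of the glycolysis genes (35.4%) and in 16 of 28 promoters of the hypoxia genes (57.1%). Over promoters of all genes tested the share was 21.8%, and over promoters of the higher members it was 34.8% for glycolysis and 64.7% for hypoxia. Of the 22 glycolysis genes with a promoter 21 were higher, so their share could hardly differ from that of the whole list. Promoters of 3 glycolysis and hypoxia genes with large rises that held the core are shown 5′ to 3′ in the direction of the gene, with the core in capitals. ALDOC has 3 matches, the first 2 of which overlap, and PDK1 and HK2 have 2 each.
ALDOC (chr17:28576896-28577145, minus strand): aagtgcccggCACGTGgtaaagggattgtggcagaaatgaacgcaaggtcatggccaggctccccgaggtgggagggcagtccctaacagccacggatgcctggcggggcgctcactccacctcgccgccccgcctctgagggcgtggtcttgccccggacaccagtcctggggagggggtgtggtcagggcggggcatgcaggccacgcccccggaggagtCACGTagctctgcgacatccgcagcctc
PDK1 (chr2:172555840-172556089, plus strand): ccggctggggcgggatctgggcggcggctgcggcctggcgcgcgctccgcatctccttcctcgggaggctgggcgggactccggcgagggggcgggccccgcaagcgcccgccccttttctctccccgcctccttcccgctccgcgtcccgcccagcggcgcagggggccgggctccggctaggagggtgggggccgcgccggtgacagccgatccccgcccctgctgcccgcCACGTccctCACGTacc
HK2 (chr2:74833877-74834126, plus strand): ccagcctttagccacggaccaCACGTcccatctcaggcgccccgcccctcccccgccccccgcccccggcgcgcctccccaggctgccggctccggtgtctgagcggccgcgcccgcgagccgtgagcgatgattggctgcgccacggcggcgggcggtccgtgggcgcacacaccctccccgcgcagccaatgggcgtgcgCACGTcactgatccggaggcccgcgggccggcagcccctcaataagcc
These matches describe letters and no binding was measured.

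Interferon-response genes were higher at 20 and lower at 1 of 40 members tested, with a median of 0.37. The interferon genes IFNB1, IFNG and IFNA1 had no count in any of the 6 libraries. OASL, an antiviral protein related to the oligoadenylate synthetases, rose from 7.31, 8.61 and 8.24 CPM to 16.5, 15.3 and 16.4 CPM (log2 fold change 1.00, SE 0.101, adjusted p = 4.23e-08). BST2 (tetherin), which holds budding virus at the cell surface, rose from 9.06, 7.87 and 6.83 CPM to 17.2, 14.8 and 15.5 CPM (0.99, SE 0.162, adjusted p = 7.19e-05). IFIT2 (0.80), IFIT3 (0.80), GBP2 (0.77), ISG20 (0.77) and IFIT1 (0.66) followed, with the regulators IRF7 (0.41), IRF1 (0.39) and IRF9 (0.34) and the RNA sensor IFIH1 (0.33). The call of IRF9 was lost in 3 of the 6 fits that left out 1 library (adjusted p = 0.0715 to 0.166). The abundant membrane proteins IFITM3 (0.37) and IFITM2 (0.50), which share reads, and IFI35 (0.42) were higher too. STAT2, which carries the interferon signal, did not pass (-0.28, adjusted p = 0.0706). SOCS3, a feedback inhibitor of cytokine receptors, was the 1 lower member, at 32.7, 33.04 and 32.9 CPM against 26.8, 28.0 and 27.4 CPM (-0.26, adjusted p = 0.0214), and lost its call in 5 of the 6 fits that left out 1 of the libraries compared (adjusted p up to 0.0753). Without PD-1 replicate 1 the list stood at 19 higher and 0 lower.

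Of 20 members of the MHC class I machinery tested, 12 were higher and 0 lower, with a median of 0.38. The light chain B2M rose from 424, 417 and 390 CPM to 662, 562 and 599 CPM (log2 fold change 0.57, SE 0.0737, adjusted p = 2.25e-06), and HLA-B from 79.5, 69.8 and 66.8 CPM to 126, 124 and 122 CPM (0.78, SE 0.0741, adjusted p = 1.53e-08). Neither overlapped. HLA-C (0.55), HLA-F (0.47) and HLA-E (0.41) were also higher, as were the immunoproteasome subunits PSMB8 (0.67) and PSMB9 (0.45), the proteasome activators PSME1 (0.37) and PSME2 (0.29). The calls of PSMB9 (5 fits) and PSME2 (3 fits) were lost when 1 library was left out (adjusted p up to 0.0793). The class I genes are near copies of each other, and reads shared between them were split by estimate. With PD-1 replicate 1 left out, 8 members were higher and 0 lower.

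The interferon-stimulated response element, taken as GAAA, any 2 bases and GAAA on either strand, occurred in 3.02% of all promoters, in 24 of 43 promoters of the interferon list (55.8%) and in 8 of 23 promoters of the class I list (34.8%). Over promoters of all genes tested the share was 2.47%, and the higher members had it in 8 of 15 promoters (53.3%) and 5 of 13 promoters (38.5%), shares close to those of the whole lists. BST2 and IFIT3 were among the members holding it that had large rises, and both hold 2 matches, which overlap in BST2.
BST2 (chr19:17405631-17405880, minus strand): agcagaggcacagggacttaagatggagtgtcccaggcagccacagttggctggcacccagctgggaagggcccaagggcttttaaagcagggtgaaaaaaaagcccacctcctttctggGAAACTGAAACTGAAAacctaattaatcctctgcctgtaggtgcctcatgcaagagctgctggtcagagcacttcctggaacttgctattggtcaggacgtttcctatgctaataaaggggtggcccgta
IFIT3 (chr10:89327747-89327996, plus strand): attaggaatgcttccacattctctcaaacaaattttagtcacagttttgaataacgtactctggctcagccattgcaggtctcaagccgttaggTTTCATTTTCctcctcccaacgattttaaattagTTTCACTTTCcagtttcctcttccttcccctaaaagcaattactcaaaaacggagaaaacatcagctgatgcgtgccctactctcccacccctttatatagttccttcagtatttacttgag

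Secreted signals changed in both directions. Among 16 chemokines and cytokines tested, 6 were higher and 3 lower. CCL5, which draws T cells and monocytes, rose from 2.28, 2.05 and 2.14 CPM to 6.30, 6.84 and 6.88 CPM (log2 fold change 1.63, SE 0.180, adjusted p = 1.74e-07). IL32 (0.80), the mucosal chemokine CCL28 (0.58), MIF (0.55), IL18 (0.29) and the membrane-bound CX3CL1 (0.28) were also higher. The lower genes were the neutrophil attractants CXCL6 (-1.61) and CXCL1 (-0.73) and the cytokine LIF (-0.26). CXCL1 fell from 5.14, 4.48 and 4.35 CPM to 2.92, 3.02 and 2.45 CPM (SE 0.124, adjusted p = 9.64e-05). The monocyte attractant CCL2 did not pass: its values of 8.53, 7.503 and 8.85 CPM and of 7.87, 7.44 and 8.57 CPM overlapped (-0.06, SE 0.151, adjusted p = 0.821). IL18, CX3CL1 and LIF each lost their call in 3 of the 6 fits without 1 library (adjusted p = 0.0660 to 0.282). Leaving out PD-1 replicate 1 put the list at 5 higher and 2 lower.

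Of 22 surface and secreted factors that restrain immune cells, 7 were higher and 4 lower. VSIR (VISTA), a ligand and receptor that inhibits T cells, rose from 11.3, 9.11 and 9.69 CPM to 18.5, 17.0 and 16.8 CPM (log2 fold change 0.80, SE 0.0962, adjusted p = 7.11e-07). Galectin-1 (LGALS1), which induces death of activated T cells, rose from 322, 351 and 335 CPM to 559, 558 and 537 CPM (0.71, SE 0.119, adjusted p = 8.52e-05), and galectin-3 (LGALS3) changed by 0.49. The arginase ARG2 (1.52, at under 1 CPM in each of the 6 libraries), NECTIN2 (0.30), the anti-phagocytic signal CD47 (0.25) and TGFB1 (0.24) were higher too. CD24, another anti-phagocytic signal, went the opposite way to CD47: it fell from 594, 610 and 625 CPM to 310, 280 and 287 CPM (-1.06, SE 0.0799, adjusted p = 2.32e-10). PVR, a ligand of TIGIT, fell by 0.33 on the log2 scale, CEACAM1 by 0.61, and VTCN1 (B7-H4) by 1.94 at under 1 CPM in each library. CD47, TGFB1 and CEACAM1 each lost their call in 3 of the 6 fits without 1 library (adjusted p = 0.0543 to 0.174). Leaving out PD-1 replicate 1 put the list at 6 higher and 3 lower, and leaving out plain replicate 1 put it at 5 and 2. In the NF-kB list, 6 of 20 were higher and 1 lower. The higher genes held the adhesion molecule ICAM1 (0.58), which rose from 105, 83.6 and 92.8 CPM to 138, 143 and 140 CPM, and the non-canonical subunits NFKB2 (0.40) and RELB (0.39), the inhibitor TNIP1 (0.43) and TNFAIP2 (0.44), and the lower gene was the ubiquitin ligase BIRC3 (-0.30).

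**Figure D3:**
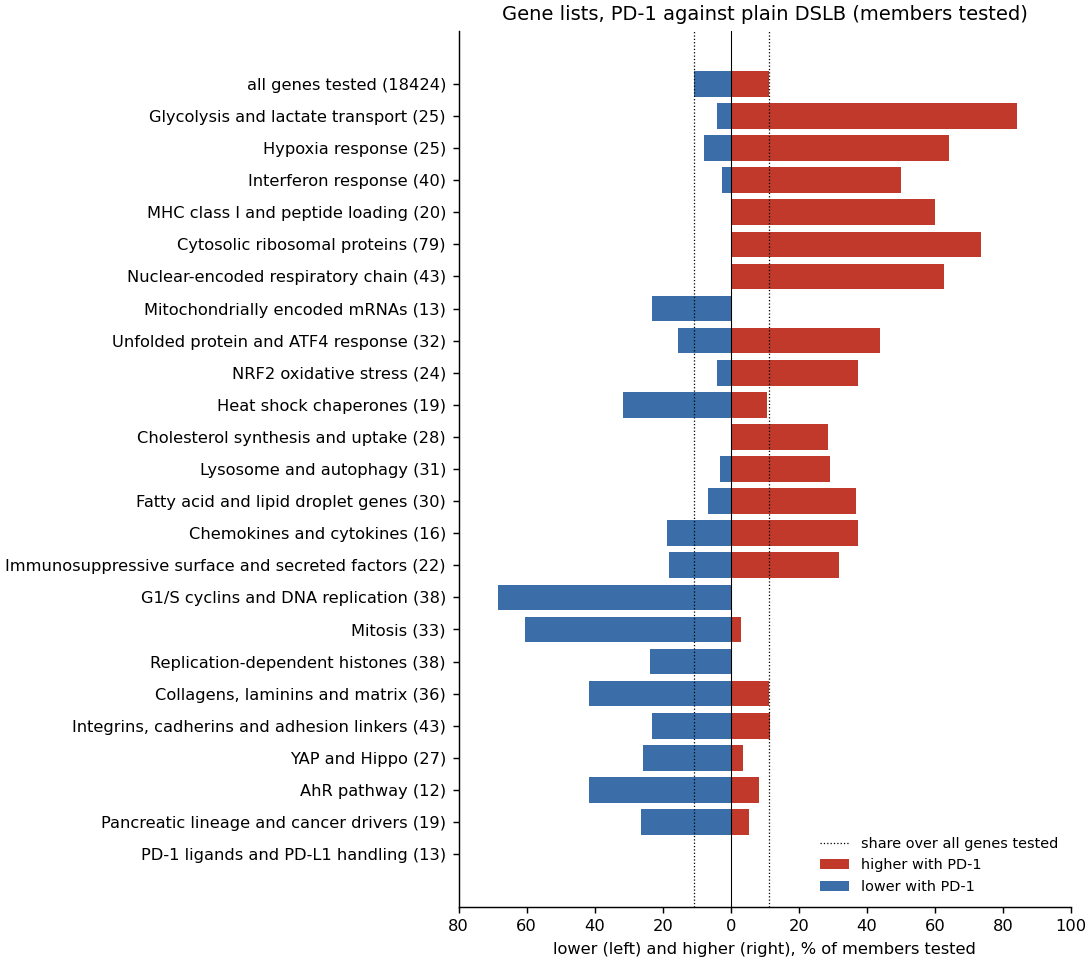
Bars give the share of tested members of each gene list (number tested in brackets) that were higher (red, to the right) or lower (blue, to the left) with PD-1 at an edgeR adjusted p of 0.05. Dotted lines mark 11.3% and 10.7%, the shares over all 18424 genes tested. Glycolysis, cytosolic ribosomal protein and hypoxia lists reach furthest to the right, and the DNA replication and mitosis lists furthest to the left.

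Ribosomal protein and respiratory chain lists had many higher members, and transcripts made inside the mitochondrion had none. Of 79 cytosolic ribosomal protein genes tested, 58 were higher and 0 lower, with a median of 0.37. RPLP0, of the ribosomal stalk, rose from 1815, 1858 and 1873 CPM to 2997, 2848 and 2689 CPM (log2 fold change 0.62, SE 0.0944, adjusted p = 2.18e-05), and RPS16 (0.46), RPS18 (0.49) and RPL39 (0.36) were higher with it. Of 43 nuclear genes of the respiratory chain, 27 were higher and 0 lower, with a median of 0.31, among them ATP5F1C (0.59), COX5B (0.51), SDHB (0.40), COX7C (0.40), COX7A2 (0.38) and ATP5F1B (0.28). Of 78 mitochondrial ribosomal protein genes, 15 were higher and 0 lower. Of the 13 mRNAs encoded by mitochondrial DNA, 0 were higher and 3 were lower, MT-ND6 (-1.26), MT-ATP8 (-0.98) and MT-ND4L (-0.68), with a list median of -0.68. MT-ATP8 and MT-ND4L each lost their call in 4 of the 6 fits without 1 library (adjusted p = 0.0565 to 0.168), and with no filter on low counts 11 of the 13 were lower. Of the 3, MT-ATP8 and MT-ND4L share bases with a neighbouring mitochondrial gene, so their reads could not be assigned to 1 gene with certainty. MT-CO1 stood at 10659, 9512 and 9387 CPM with plain DSLBs and 6169, 9380 and 9454 CPM with PD-1, where only PD-1 replicate 1 lay apart (-0.24, adjusted p = 0.482).

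Gene length and PD-1 replicate 1 moved with these lists. Short genes tended to be higher with PD-1 and long genes lower: over 5 length classes of equal size, in the shortest class the median log2 fold change was 0.15, with 12.9% higher and 2.50% lower, and in the longest class it was -0.13, with 5.10% higher and 22.7% lower. The ribosomal protein and respiratory chain lists are short, with median lengths of 531 and 758 bases against 1914 over all genes tested. After the trend with length was removed, 45 ribosomal protein, 19 respiratory chain and 6 mitochondrial ribosomal protein genes were higher. Without PD-1 replicate 1 these counts were 38, 13 and 5, and 1 mitochondrial mRNA was lower. With both changes they were 30, 9 and 5. Leaving out plain replicate 1 gave 35, 14 and 7, plain replicate 2 gave 47, 14 and 9, and plain replicate 3 gave 45, 16 and 10. The mitochondrial mRNAs had 1 lower also without plain replicate 2 or plain replicate 3. With both changes the glycolysis, hypoxia and interferon lists had 20, 16 and 21 higher members.

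**Figure D4:**
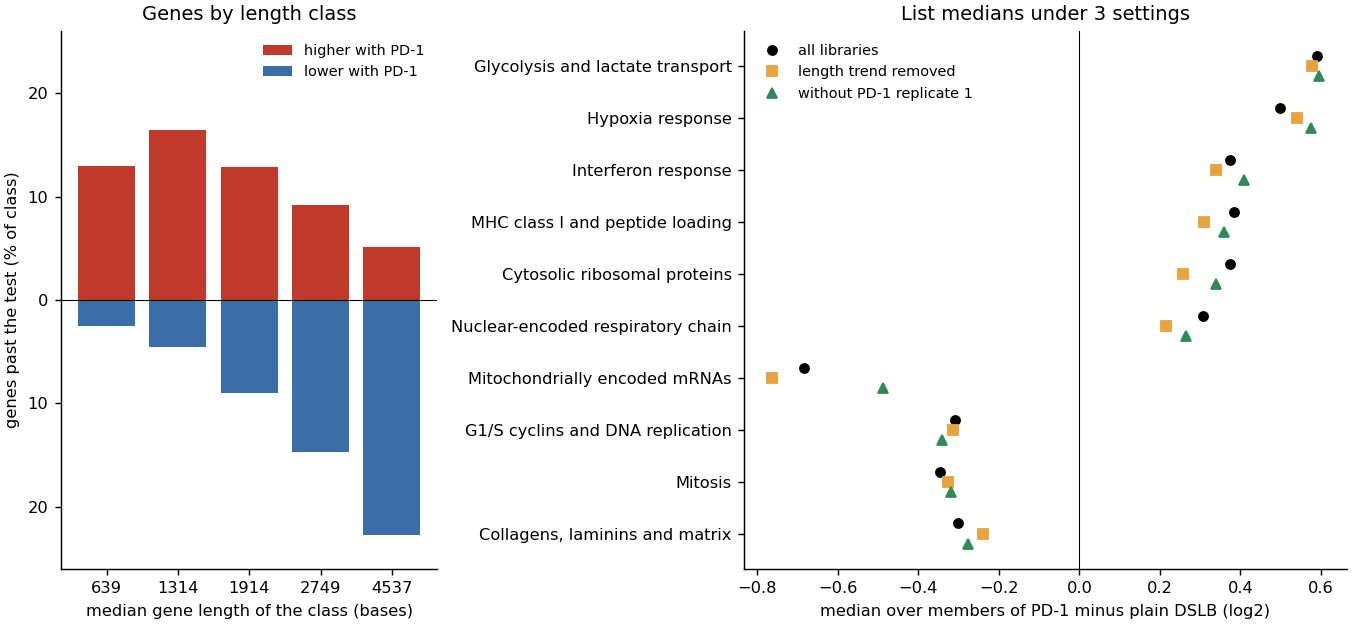
Left, the share of genes higher (red, upward) and lower (blue, downward) with PD-1 in 5 classes of equal size by gene length, labelled with the median length of the class in bases. Right, the median PD-1 minus plain DSLB log2 fold change of 10 lists with all libraries (circles), after removing the trend with gene length (squares) and without PD-1 replicate 1 (triangles). Each list keeps its side of 0 under all 3 settings.

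The share of all counts from mitochondrial genes was 5.19%, 4.78% and 4.73% in the plain libraries and 2.66%, 3.95% and 4.002% in the PD-1 libraries. The groups did not overlap, with means of 4.90% ± 0.249 and 3.54% ± 0.764 (SD, n = 3 each), and the difference of -1.36 percentage points had an exact two-sided permutation p of 0.1, the smallest that 3 against 3 libraries allow. The DSLB-free libraries (4.81%, 3.19% and 4.98%) overlapped both groups. Ribosomal protein genes took 7.83% ± 0.234 of counts with PD-1 and 6.21% ± 0.259 with plain DSLBs (exact permutation p = 0.1). The share outside protein-coding genes was 2.71% ± 0.132 and 2.84% ± 0.0361 (exact permutation p = 0.2).

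**Figure D5:**
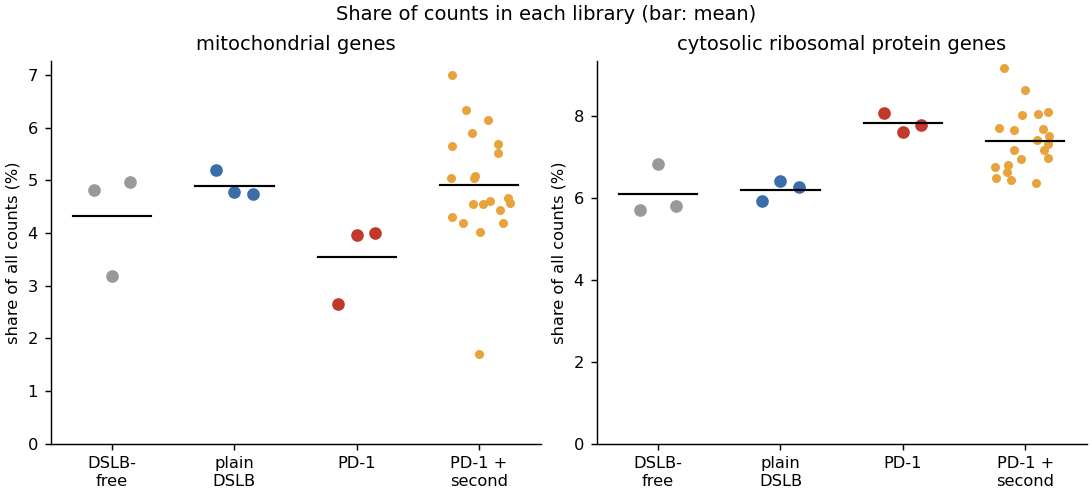
Points give the percentage of all counts in each library that came from mitochondrial genes (left) and from cytosolic ribosomal protein genes (right), with the group mean as a bar and axes from 0. PD-1 replicate 1 has the lowest mitochondrial share of the 6 libraries compared, 2.66%, and all 3 PD-1 libraries lie above the 3 plain libraries in ribosomal protein share.

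Stress responses split by branch. In the list of the unfolded protein response and the amino acid response driven by ATF4, 14 of 32 were higher and 5 lower. The higher genes were mostly targets of ATF4, the factor translated when amino acids run short: DDIT3 (CHOP) rose from 30.6, 22.6 and 25.8 CPM to 46.2, 48.0 and 50.8 CPM (log2 fold change 0.88, SE 0.1097, adjusted p = 1.33e-06), and asparagine synthetase (ASNS, 0.71), the serine synthesis enzymes PHGDH (0.72) and PSAT1 (0.69), the glutathione-degrading CHAC1 (0.94), the pseudokinase TRIB3 (0.91) and ATF4 itself (0.44) were higher. The 5 lower genes were chaperones of the endoplasmic reticulum, MANF (-0.30), HYOU1 (-0.29), DNAJB11 (-0.28), HSP90B1 (-0.23) and PDIA4 (-0.22), while HSPA5 (BiP) did not pass (0.05, adjusted p = 0.702). HSP90B1 lost its call in 5 and PDIA4 in 3 of the 6 fits without 1 library (adjusted p up to 0.205). The list had 2 lower without plain replicate 1 or PD-1 replicate 2, and 3 without PD-1 replicate 3. Without PD-1 replicate 1 the list stood at 12 higher and 5 lower. Cytosolic heat shock chaperones had 2 higher and 6 lower genes of 19. HSPH1, which recharges HSP70, fell from 292, 294 and 301 CPM to 183, 171 and 185 CPM (-0.72, SE 0.0625, adjusted p = 3.39e-09), with DNAJA1 (-0.38). The small heat shock proteins HSPB8 (0.72) and HSPB1 (0.33) were the 2 higher, and HSPB1 lost its call in 5 of the 6 fits (adjusted p = 0.0616 to 0.0766) and HSPB8 without PD-1 replicate 1 or plain replicate 1. The list stood at 0 higher and 7 lower without PD-1 replicate 1 and at 0 and 4 without plain replicate 1, and leaving out any other library gave 4 lower. Among 24 targets of the oxidative stress factor NRF2, 9 were higher and 1, the exporter ABCC2 (-0.62), was lower. Heme oxygenase HMOX1 rose from 71.8, 43.4 and 65.0 CPM to 136, 136 and 126 CPM (1.15, SE 0.131, adjusted p = 5.33e-07), and the cystine importer SLC7A11 (0.78), the ferritin light chain FTL (0.45) and the thioredoxin reductase TXNRD1 (0.42) were higher too. This list stood at 7 higher and 1 lower without PD-1 replicate 1, and 6 and 1 without plain replicate 2. The inhibitors of mTORC1 SESN2 (0.94) and DDIT4 (0.89) were the largest rises among 27 genes of AKT and mTOR signalling, of which 5 were higher and 2 lower, and 3 and 1 without PD-1 replicate 1.

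In the lipid and lysosomal lists most members did not pass. Of 30 fatty acid and lipid droplet genes 11 were higher and 2, PDK4 (-0.62) and PPARD (-0.24), were lower. The lipase inhibitor ANGPTL4 rose from 65.9, 53.8 and 67.3 CPM to 130, 163 and 144 CPM (log2 fold change 1.22, SE 0.149, adjusted p = 1.68e-06), and the desaturase SCD from 4109, 3952 and 4356 CPM to 6220, 5538 and 5264 CPM (0.46, adjusted p = 0.0116, and 0.0689 without PD-1 replicate 1). Of 28 cholesterol genes, 8 were higher and 0 lower, none by more than 0.37 (IDI1 and SREBF1). Of 31 lysosome and autophagy genes, 9 were higher, among them NEU1 (0.53), PSAP (0.51) and SQSTM1 (0.31), and 1, the cathepsin CTSV (-0.66), was lower. The counts of higher genes were 5, 4 and 8 without PD-1 replicate 1, and that of fatty acid and lipid droplet genes was 5 to 7 without PD-1 replicate 2, plain replicate 1 or plain replicate 2.

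Cell cycle genes were lower as a group. Of 38 genes of G1/S entry and DNA replication, 0 were higher and 26 lower, with a median of -0.31. The checkpoint adaptor CLSPN fell from 32.1, 29.0 and 30.2 CPM to 18.3, 14.5 and 16.7 CPM (log2 fold change -0.89, SE 0.0970, adjusted p = 1.48e-07), and the G1 kinase CDK6 from 58.2, 60.6 and 58.3 CPM to 36.8, 36.3 and 35.6 CPM (-0.70, SE 0.104, adjusted p = 1.58e-05). The E2F factors E2F2 (-0.67), E2F1 (-0.55) and E2F3 (-0.23) and 6 genes of the MCM family, from MCM10 (-0.58) to MCM2 (-0.23), were lower, as was the nucleotide enzyme RRM2 (-0.27). Of 33 mitosis genes 20 were lower and 1 higher, with a median of -0.35. The proliferation antigen MKI67 went from 224, 178 and 201 CPM to 102, 110 and 107 CPM (-0.92, SE 0.189, adjusted p = 0.00121), TOP2A from 262, 235 and 252 CPM to 163, 156 and 168 CPM (-0.62, SE 0.0864, adjusted p = 6.30e-06), and their activator FOXM1 from 30.2, 24.1 and 29.7 CPM to 16.0, 17.9 and 18.0 CPM (-0.69, SE 0.112, adjusted p = 4.80e-05). The spindle gene TPX2 (-0.39) was lower too. The ubiquitin-conjugating enzyme UBE2C was the exception (0.30, adjusted p = 0.0248), with a call lost when any of 4 libraries was left out (adjusted p = 0.0592 to 0.0968). Of 38 replication-dependent histone genes tested, 0 were higher and 9 lower, among them H3C4 (-1.08) and H1-2 (-0.48). Without PD-1 replicate 1 the counts of lower genes were 27, 15 and 8, and after removal of the length trend 26, 18 and 12.

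Late cell cycle promoters often carry the CHR element, TTTGAA. Searched on both strands it occurred in 13.3% of all promoters and in 15 of 34 promoters of the mitosis list (44.1%). An E2F site, taken as TTTCCCGC or TTTGGCGC on either strand, occurred in 1.93% of all promoters and in 14 of 43 promoters of the G1/S list (32.6%). Over promoters of all genes tested the shares were 9.19% and 2.66%. Over those of the lower members they were 45.0% for the CHR in the mitosis list and 36.7% for the E2F site in the G1/S list, close to the shares of the whole lists. MKI67 and TOP2A show 2 CHR elements each, and E2F2 and GINS2 show 1 E2F site each. They were among the members past the test with large falls whose promoter in the table held the element.
MKI67 (chr10:128126424-128126673, minus strand): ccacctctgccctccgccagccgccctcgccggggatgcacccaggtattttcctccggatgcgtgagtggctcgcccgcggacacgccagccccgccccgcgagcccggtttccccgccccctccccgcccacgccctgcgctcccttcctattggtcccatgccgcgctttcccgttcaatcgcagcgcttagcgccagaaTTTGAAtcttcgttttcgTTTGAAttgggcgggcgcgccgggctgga
TOP2A (chr17:40417897-40418146, minus strand): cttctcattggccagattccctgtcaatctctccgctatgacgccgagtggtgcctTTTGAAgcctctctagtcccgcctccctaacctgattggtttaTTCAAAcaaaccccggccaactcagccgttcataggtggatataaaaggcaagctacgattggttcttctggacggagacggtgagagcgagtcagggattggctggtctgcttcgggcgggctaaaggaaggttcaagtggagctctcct
E2F2 (chr1:23531234-23531483, minus strand): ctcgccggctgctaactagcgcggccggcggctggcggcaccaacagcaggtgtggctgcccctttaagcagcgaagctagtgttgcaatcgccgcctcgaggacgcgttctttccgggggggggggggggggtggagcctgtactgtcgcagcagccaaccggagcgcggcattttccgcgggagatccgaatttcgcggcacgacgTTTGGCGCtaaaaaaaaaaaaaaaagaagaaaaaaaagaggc
GINS2 (chr16:85688955-85689204, minus strand): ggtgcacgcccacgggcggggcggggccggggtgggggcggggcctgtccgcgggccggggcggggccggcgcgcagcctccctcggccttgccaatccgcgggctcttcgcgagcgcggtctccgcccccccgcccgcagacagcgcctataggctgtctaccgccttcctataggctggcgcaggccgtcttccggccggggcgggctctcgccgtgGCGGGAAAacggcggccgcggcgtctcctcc
GINS2, a part of the replicative helicase, fell from 8.95, 8.92 and 8.01 CPM to 5.70, 4.86 and 6.01 CPM (-0.65, adjusted p = 0.000526).

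Matrix genes were among the largest falls. Of 36 collagens, laminins and other matrix genes, 15 were lower and 4 higher, with a median of -0.30. Tenascin C (TNC) fell from 177, 154 and 157 CPM to 42.6, 49.7 and 49.3 CPM (log2 fold change -1.79, SE 0.119, adjusted p = 5.54e-11), and fibronectin (FN1) from 72.7, 61.9 and 63.4 CPM to 19.6, 24.9 and 22.4 CPM (-1.57, SE 0.114, adjusted p = 1.55e-10). COL17A1 (-1.61), COL12A1 (-1.23), COL1A1 (-0.57), LAMC1 (-0.37) and the laminin chains LAMB3 (-0.69) and LAMA3 (-0.49) were lower too. The 4 higher genes were SPARC (0.80), the protease inhibitors TIMP1 (0.37) and TIMP2 (0.34) and the collagen crosslinker LOXL2 (0.34). Matrix genes are long, with a median of 3837 bases, and without the length trend the list stood at 14 lower and 6 higher, and without PD-1 replicate 1 at 14 and 4. COL1A1 and COL3A1 (-1.35) are also the 2 fibroblast markers that were lower. COL1A2, DCN, PDGFRA and FAP were among the 6 of 10 fibroblast markers that lay under 1 TPM in all 6 libraries.

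Junction and adhesion genes were lower at 10 and higher at 5 of 43. P-cadherin (CDH3) fell from 128, 105 and 107 CPM to 49.3, 48.1 and 46.2 CPM (log2 fold change -1.24, SE 0.0627, adjusted p = 8.66e-14), and E-cadherin (CDH1) fell from 97.9, 83.0 and 85.6 CPM to 52.5, 55.0 and 52.9 CPM (-0.73, SE 0.0740, adjusted p = 3.99e-08). Vinculin (VCL, -0.34) was lower and the tight junction gene CLDN4 (0.37) higher. The desmosome genes DSC2 (-0.96), PKP2 (-0.86) and DSP (-0.81) were lower with them. After removal of the length trend this list stood at 7 lower and 10 higher, and without PD-1 replicate 1 or plain replicate 2 at 9 lower and 3 higher. Keratins moved the other way: KRT19 rose from 651, 624 and 624 CPM to 1276, 1188 and 1075 CPM (0.90, SE 0.113, adjusted p = 1.37e-06), with KRT18 (0.52) and KRT8 (0.49), and the mesenchymal filament VIM changed by 0.45. The epithelial-mesenchymal list therefore held 7 higher and 5 lower genes, with epithelial and mesenchymal genes on each side: the mesenchymal factors ZEB2 (-0.77) and TCF4 (-0.96) and the epithelial genes EPCAM (-0.33) and ESRP1 (-0.35) were lower, and AXL (0.41) was higher. Leaving out PD-1 replicate 1 put it at 6 higher and 5 lower.

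Other lower lists were smaller. Of 27 genes of the YAP and Hippo pathway 7 were lower, among them the targets CCN2 (CTGF), from 73.1, 60.97 and 66.8 CPM to 39.4, 34.3 and 35.7 CPM (log2 fold change -0.88, SE 0.0942, adjusted p = 1.08e-07), CCN1 (-0.65) and AMOTL2 (-0.61), and 1, GADD45A (0.44), was higher. Without the length trend these counts were 4 and 3, without PD-1 replicate 1 they were 5 and 1, and without PD-1 replicate 3, plain replicate 1 or plain replicate 3 they were 4 and 1. Of 12 genes of the aryl hydrocarbon receptor pathway, which responds to planar aromatic compounds, 5 were lower: the receptor AHR (-0.48), its partner ARNT2 (-0.29) and its targets ALDH3A1 (-2.54), CYP1A1 (-1.57) and CYP1B1 (-0.69). The enzyme NQO1 (0.25), also a target of NRF2, was the 1 higher. CYP1A1 lost its call in 5, ARNT2 in 4 and NQO1 in 3 of the 6 fits without 1 library (adjusted p up to 0.179), and the list stood at 0 higher and 4 lower without PD-1 replicate 1. When only genes with a mean of at least 100 counts were kept, 10 members were tested, with 1 higher and 3 lower. CYP1B1 fell from 221, 213 and 206 CPM to 136, 131 and 130 CPM (SE 0.0640, adjusted p = 1.03e-08). Of 19 pancreatic lineage and cancer genes, KLF5 (-0.86), FOXA1 (-0.63), AGR2 (-0.45), CEACAM6 (-1.79) and MUC16 (-0.78) were lower and the pancreatic homeobox factor PDX1 (0.88) was higher. MUC16 lost its call in 5 and FOXA1 in 3 of the 6 fits (adjusted p = 0.0602 to 0.135), and leaving out PD-1 replicate 1 put the list at 1 higher and 4 lower. At a mean of at least 100 counts, 8 members of this list were tested, with 0 higher and 3 lower.

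Signalling lists had genes past the test in both directions, several at shares near the 13.2% higher and 12.4% lower of protein-coding genes tested. The shares were 15.0% each way for Wnt, 16.1% each way for MAPK, and 11.1% higher and 18.5% lower for TGF-beta. MAPK early and feedback genes had 5 higher, led by ATF3 (1.10), and 5 lower, led by the ERK phosphatase DUSP4 (-1.35), whose call was lost in 5 of the 6 fits without 1 library (adjusted p = 0.0720 to 0.142). That list stood at 3 higher and 3 or 4 lower in each of those fits except the one without PD-1 replicate 1, with 5 and 5. Notch genes had 5 and 5, with the ligand JAG1 (-0.75) and the receptors NOTCH1 (-0.50) and NOTCH2 (-0.41) lower and the fringe enzymes MFNG (1.04) and LFNG (0.31) higher. LFNG lost its call in 3 of those fits (adjusted p up to 0.113). The Notch list had 1 to 3 higher and 3 to 5 lower whichever library was left out, and 2 and 3 without PD-1 replicate 1. Wnt genes had 6 and 6 of 40, from FZD7 (0.73) to LEF1 (-1.42), and LEF1 lost its call in all 6 fits without 1 library (adjusted p = 0.0648 to 0.133). The Wnt list had 5 and 5 without PD-1 replicate 1, and 3 and 5 without PD-1 replicate 2 or plain replicate 2. With the length trend removed it had 9 higher and 3 lower. The TGF-beta list had 3 higher and 5 lower in all, and 3 and 4 without PD-1 replicate 1. With the length trend removed its balance turned, to 7 higher and 2 lower. Among the lower, ID3, a target of bone morphogenetic proteins, fell from 75.6, 75.7 and 78.3 CPM to 41.2, 40.5 and 40.5 CPM (-0.91, SE 0.139, adjusted p = 3.38e-05). Receptor tyrosine kinases had 3 higher and 6 lower of 29, among them RET (-0.47) and ERBB3 (-0.80). They had 2 higher and 5 lower without PD-1 replicate 1, and 4 and 4 with the length trend removed. Wnt, TGF-beta and receptor kinase genes are long, with list medians of 3287, 3233 and 3511 bases. Targets of p53 had 4 higher (16.7%) and 2 lower (8.33%) of 24, with a median of -0.01. The higher ones held the death genes BBC3 (0.49) and TNFRSF10B (0.36). Apoptosis genes had 6 higher (22.2%) and 3 lower (11.1%) of 27, and 4 and 3 without PD-1 replicate 1. When a change of over 1.2-fold was required, neither of these lists had a member past the test. The transferrin receptor TFRC (-0.46) was lower and the zinc importer SLC39A10 (0.36) higher, the only 2 of 13 metallothionein and metal transport genes past the test. The call of SLC39A10 was lost without PD-1 replicate 2 or plain replicate 1.

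Of 3810 tested genes outside the protein-coding class, 178 (4.67%) were higher and 171 (4.49%) lower. Of 24 host genes of small nucleolar RNAs, 9 were higher and 2 lower, and 8 and 0 without PD-1 replicate 1. These genes are short, with a median of 718 bases. With the length trend removed 6 were higher and 2 lower, and with both changes 5 and 1. ZFAS1 rose from 70.2, 80.4 and 76.6 CPM to 119, 106 and 111 CPM (log2 fold change 0.57, SE 0.113, adjusted p = 0.000630), and GAS5 from 140, 152 and 146 CPM to 195, 192 and 203 CPM (0.43, SE 0.0730, adjusted p = 0.000105). Of 33 nuclear or intron-retaining transcripts 0 were higher and 9 lower, and between 1 and 6 were lower when 1 library was left out, with 1 without PD-1 replicate 1.

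Set against DSLB-free tumoroids, the PD-1 hybrids differed at 4862 genes, 26.4% of those tested, 2579 higher and 2283 lower. This comparison shares the PD-1 libraries with the one above. The interferon list had 24 higher and 1 lower, with a median of 0.37. ALDOC stood at 23.6 CPM and TNC at 129 CPM on average in the DSLB-free libraries, and the log2 fold changes against them were 1.92 and -1.45. B2M was at 351 CPM and CD24 at 567 CPM, with log2 fold changes of 0.79 and -0.95.

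Set against the mean of the 7 groups with PD-1 and a second molecule, the PD-1 hybrids differed at 7 genes, 0.038% of those tested, with 1765 at an unadjusted p under 0.05. The single higher gene (ENSG00000273170, 0.00543% of genes tested) and the 6 lower genes (0.0326%) were named after their values were seen. The lower genes were the noncoding THUMPD3-AS1, SNHG3, SNHG20 and MIOS-DT, the pseudogene SNRPEP2 and the arginine- and serine-rich RSRP1. SNHG3 was at 29.0, 37.7 and 41.8 CPM in the PD-1 libraries and between 38.3 and 74.2 CPM in the 21 others. PD-1 replicate 1 was the lowest of the 3. Without PD-1 replicate 1 edgeR called 0 genes (763 at an unadjusted p under 0.05), and without PD-1 replicate 2 also 0 (1558). The leading genes of the comparison with plain DSLBs were also measured in the other PD-1-bearing hybrids: across the 21 libraries with a second molecule, ALDOC was between 65.6 and 105 CPM, CCL5 between 4.96 and 7.64 CPM, CP between 19.0 and 31.0 CPM and TNC between 36.4 and 56.0 CPM.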

How the data were processed

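RNA-seq libraries were made from 30 cultures of PANC-1 cells (10 groups of 3). Per the labels, the authors checked reads with FastQC 0.11.2, trimmed them with Trim Galore 0.3.3, aligned them with STAR to hg38 and quantified genes with RSEM, with SAMtools 1.3.1. The deposited files hold expected counts (estimated read numbers per gene, not normalized), TPM and effective length for 60483 genes. For the annotation release and for the strand setting in counting, nothing is given in the sources used here. The authors' TPM values were used only to compare levels between genes and for marker sums.

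Expected counts were rounded and fitted in R 4.3.3 with edgeR 4.0.16 (filterByExpr, TMM, robust quasi-likelihood test, Benjamini-Hochberg adjustment at 0.05) on all 30 libraries. This kept 18424 genes. Levels in CPM use TMM-scaled library sizes. Shares of counts were compared by exact permutation tests. Splitting reads between similar genes by estimate, and filtering low counts, can shift values of near copies and of rare transcripts. The total of each library sets its precision. The median SE of a log2 fold change was 0.116. The script was tested on simulated data: of 100 genes changed by a log2 fold change of 0.5 in PD-1 against plain DSLB, 70% were recovered. The changed genes had a mean of at least 50 counts, and neither a length trend nor an outlying library was simulated. Recovery of rarer genes was not tested.

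Genes were named by a rule: up to 10 in each direction with the largest change among those past the test with a mean of at least 50 counts and no overlap between groups, up to 5 for the other comparisons, the PD-1 ligand genes, CCL2, and up to 4 members of each list, those past the test first and then by TPM. Not all of them are printed, and some items are not reported here. Other genes were picked after their values were seen. The members of the lists, and the lists, were chosen with earlier results of these data known. Alternatives were limma 3.58.1 (voom), DESeq2 1.42.0, other scaling and filters, gene length and GC trends removed, a fold threshold, a replicate block and each library left out. No pairing by replicate number was seen: deviations of same-numbered PD-1 and plain libraries correlated at -0.05, -0.11 and -0.02. With 3 libraries a group, and PD-1 replicate 1 apart from the others, this check cannot settle whether the replicates were paired. Promoters came from RefSeq (GRCh38.p14), with 12379 of 18417 tested symbols matched.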

Additional observations from a re-analysis of the deposited data

How the results depend on the processing

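For PD-1 against plain DSLBs, the 4054 genes past the test became 1007 (484 higher, 523 lower) when a change of over 1.2-fold was required, and the 602 of 2015 tested members of the lists and gene classes past the test became 183. EdgeR on the 6 libraries compared gave 6015 genes and DESeq2 on them 5191. Leaving out 1 library gave 2816 to 3334 genes and 433 to 517 list members, with fewer libraries in the fit. The fit with replicate block gave 2122 higher and 2045 lower genes, and no pairing by replicate number was seen. Against DSLB-free tumoroids, edgeR on the 6 libraries compared gave 3121 genes and leaving out 1 library 3456 to 4897. Against the 7 co-presenting groups the count of 7 became 93 with DESeq2, 575 with no filter on low counts, 13 at an adjusted p of 0.1 and 1 with the replicate block, and leaving out 1 PD-1 library gave 0 to 6. The cause of these shifts was not tested. The mitochondrial share differed by -1.36 percentage points of counts and by -2.83 of TPM. Leaving out 1 library gave -1.60 to -0.92 percentage points of counts. Of 241 named genes past the test, 53 lost the call in at least 1 of the 6 fits without 1 library, 0 changed direction in the 18 alternatives wherever they were tested, and 132 never lost the call. Of these 132, 114 were tested in all 18. Of the genes given that did not pass, CMTM4 changed sign to a log2 fold change of 0.0073 with the gene length trend removed, and of 0.027 also without PD-1 replicate 1. CMTM6 ranged from -0.026 to 0.10 and HSPA5 from -0.074 to 0.14 when 1 library was left out, both below 0 without PD-1 replicate 1. The GC trend, the length trend without PD-1 replicate 1, and the list counts under each setting were added after the data were seen. With 3 libraries a group, transcripts of a few counts such as CD274 could not be tested.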

Other observations

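Proteasome subunits passed the test at close to the rate of all genes. Of 37 tested, 5 were higher and 5 lower with PD-1 by edgeR's quasi-likelihood test at an adjusted p of 0.05. That is 13.5% each way, against 11.3% higher and 10.7% lower over all genes tested and 13.2% and 12.4% over protein-coding genes. The higher members were the immunoproteasome subunits PSMB8 (log2 fold change 0.67) and PSMB9 (0.45) and the core particle subunits PSMA6 (0.28), PSMB1 (0.23) and PSMB2 (0.16). The lower members, PSMD11 (-0.26), PSMD12 (-0.23), PSMD2 (-0.21), PSMD1 (-0.21) and PSMD5 (-0.17), belong to the regulatory particle or its assembly. After removal of the trend with gene length the list stood at 3 higher and 8 lower, and without PD-1 replicate 1 at 2 higher and 4 lower. With no filter on low counts it stood at 5 higher and 1 lower. Requiring a change of over 1.2-fold left 1 higher and 0 lower. PSMD5 and PSMB2 lost their calls in all 6 fits that left out 1 of the libraries compared (adjusted p = 0.0679 to 0.113), PSMB9 in 5, and PSMB1 and PSMD1 in 3, and the counts ranged from 2 to 4 in either direction.

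Of 28 genes for histone demethylases and other chromatin enzymes, 5 were higher (17.9%) and 3 lower (10.7%). Over all genes tested the shares were 11.3% and 10.7%. The histone demethylase KDM4B stood at 45.7, 48.3 and 50.3 CPM with plain DSLBs and at 69.8, 76.5 and 66.8 CPM with PD-1, with no overlap (log2 fold change 0.56, adjusted p = 5.17e-07). The maintenance DNA methyltransferase DNMT1 stood at 95.6, 76.9 and 93.5 CPM with plain DSLBs and at 59.7, 61.9 and 62.7 CPM with PD-1 (-0.53, adjusted p = 4.04e-05). TET3 (-0.54), which oxidizes methylated cytosine, and the acetyltransferase CREBBP (-0.38) were the other lower genes, and CREBBP lost its call in 5 of the 6 fits without 1 library (adjusted p = 0.0525 to 0.116). Leaving out PD-1 replicate 1 put the list at 3 higher and 2 lower, and PD-1 replicate 2 at 2 and 2.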
